A study of Mus musculus with 9 samples.

Results

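Collagens are secreted matrix proteins whose chains assemble into helical trimers, and 44 of the 21959 genes in the expression table of this study code for such chains. The members were taken by name alone: every gene whose symbol is Col, 1 or 2 digits, the letter a and 1 further digit. They fall into 11 fibrillar, 9 network, 6 beaded filament and 9 FACIT genes, and 9 others that belong to none of these classes. The study sequenced RNA of mouse bone marrow mesenchymal stromal cells (MSCs), labelled as an SV40 cell line, in 3 groups of 3 libraries. TNBS PF cells spent 24 h with peritoneal interstitial fluid (PF) of mice given TNBS, a hapten that causes colitis, for 3 days. Control PF cells spent 24 h with the same fluid of control mice, and PBS cells for 24 h with phosphate-buffered saline. All 3 groups shared the medium, DMEM/F12 with 10% FBS. No label gives the strain, age or number of the mice, whether their fluid was pooled, or whether the 3 libraries of a group were separate cultures. P-values therefore measure the spread between these libraries, which may be technical, and all values describe 1 cell line.

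Fibrillar collagens (types I, II, III, V and XI among others) form the banded fibrils that carry load in connective tissue. Network collagens form sheets, such as the type IV mesh of basement membranes and the type VIII lattice. Type VI forms beaded microfilaments around cells, and FACIT collagens, the fibril-associated ones with interrupted triple helices, sit on the surface of fibrils. MSCs are known to secrete matrix rich in type I collagen. Chains are hydroxylated and folded in the endoplasmic reticulum, exported, trimmed of their propeptides and cross-linked outside the cell.

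Tests covered the 19 members that reached an FPKM of 1 in 3 or more libraries: 7 fibrillar, 5 network, 3 beaded filament, 2 FACIT and 2 others. FPKM is fragments per kilobase of gene length, relative to all assigned fragments. The length that fits the deposited values counts all annotated exons of a gene (GENCODE M21), not the transcript expressed. It was 12426 bases for Col1a2, 6563 for Col1a1, 4380 for Col6a1 and 8326 for Col6a2. Levels, shares and ratios of different genes therefore depend in part on the annotation, to an extent that was not tested. Each gene has the same length in every library. Tests used limma on log2(FPKM + 1) over all 10537 genes that passed this filter, with 0.05 as the threshold of the adjusted p. A fold change given on that scale is written as log2, and it understates the change of genes with few FPKM. At 17.9 to 25.6 M assigned fragments per library, the 19 tested members had between 134 (Col4a6) and 86684 (Col1a2) fragments in a library. TNBS PF libraries were the deepest (22.9 to 25.6 M, against 18.6 to 21.5 M in control PF libraries and 17.9 to 20.3 M in PBS libraries), and the part of this in the results was not tested. FPKM of bulk RNA cannot tell fewer cells that express a gene from less RNA per cell. Of 12 stromal markers 11 had a mean FPKM of at least 1 (Lepr did not), and their summed level was 1010 to 1020 FPKM with TNBS PF, 1010 to 1040 with control PF and 1020 to 1040 with PBS. Itgb1 alone averaged 513.6 FPKM with TNBS PF, 485.2 with control PF and 486.6 with PBS, and single markers moved either way. Against control PF, 3 of the 11 fell with TNBS PF (Pdgfra, Pdgfrb and Ly6a) and 2 rose (Cd44 and Vcam1, the second with an adjusted p of up to 0.128 over the alternatives). Against PBS the same 3 fell and Nt5e and Vcam1 rose. Pdgfra averaged 9.48 FPKM with TNBS PF, 12.6 with control PF and 12.4 with PBS, and Pdgfrb 14.2 with TNBS PF, 18.8 with control PF and 19.3 with PBS. Ly6a averaged 208.6 FPKM with TNBS PF, 260.0 with control PF and 247.7 with PBS. With control PF, Cd44 fell and Nt5e rose against PBS (Nt5e with an adjusted p of up to 0.124). Of 12 mesothelial markers 4 reached that mean, with sums of 52.6 to 57.9 FPKM with TNBS PF, 46.2 to 47.6 with control PF and 47.8 to 48.6 with PBS. Muc16 was at 0 in every library and Upk3b at or near 0, and Msln made up most of these sums. Of the 4, 3 rose with TNBS PF against either other group (Msln, Krt19 and Krt18, with an adjusted p of up to 0.181 over the alternatives). For Msln and Krt19 the TNBS PF and PBS libraries overlapped. The other, Slpi, averaged 4.937 FPKM with TNBS PF, 6.035 with control PF and 4.388 with PBS. TNBS PF lay below control PF for Slpi without overlap, and the difference missed the threshold (log2 −0.25, adjusted p = 0.12). Among 8 macrophage and monocyte markers only Cd14 and Cd68 reached the mean, Ptprc was at 0 in all but 1 library, and the sums were 16.3 to 18.2 FPKM with TNBS PF, 15.3 to 17.3 with control PF and 14.4 to 15.8 with PBS. Cd14 rose with TNBS PF against PBS (14.8 against 12.89 FPKM, log2 0.19, adjusted p = 0.03, up to 0.121 over the alternatives). It was not called in the other comparisons, and Cd68 was not called in any. The part of these stromal, mesothelial and macrophage markers in the results was not tested.

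The tested collagens that passed the test with TNBS PF were mostly lower, and the size of the difference depended on the gene. Against control PF, 8 of the 19 fell and 1 (Col8a1) rose, which is 9 called where 10.6% of all genes tested were called (5.45% lower, 5.15% higher). The median log2 fold change of the 19 was −0.12, beside −0.01 over all genes tested. Against PBS, TNBS PF cells had 13 lower and 1 higher, where 16.7% of all genes were called (8.88% lower, 7.8% higher), and the median of the 19 was −0.21 beside −0.01. With control PF, 3 fell and none rose against PBS, where 2.15% of all genes were called (1.14% lower, 1.02% higher), and the median was −0.08 beside 0.00. The 14 calls of TNBS PF against PBS dropped to 9 without TNBS PF library 2 and to 9 without PBS library 1. The 3 comparisons share libraries, so their values are set side by side below and not counted as independent of each other.

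Without any model, the 3 TNBS PF libraries all lay below the 3 control PF libraries for 12 of the 19 genes and above them for 3, where 31.8% of all genes tested had groups that did not overlap (18.2% with TNBS PF lower). TNBS PF lay below PBS for 13 and above it for 2 (35.3% of all genes without overlap, 19.7% with TNBS PF lower). Control PF lay below PBS for 8 and above it for 2 (18.6% and 9.32%).

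**Figure D1:**
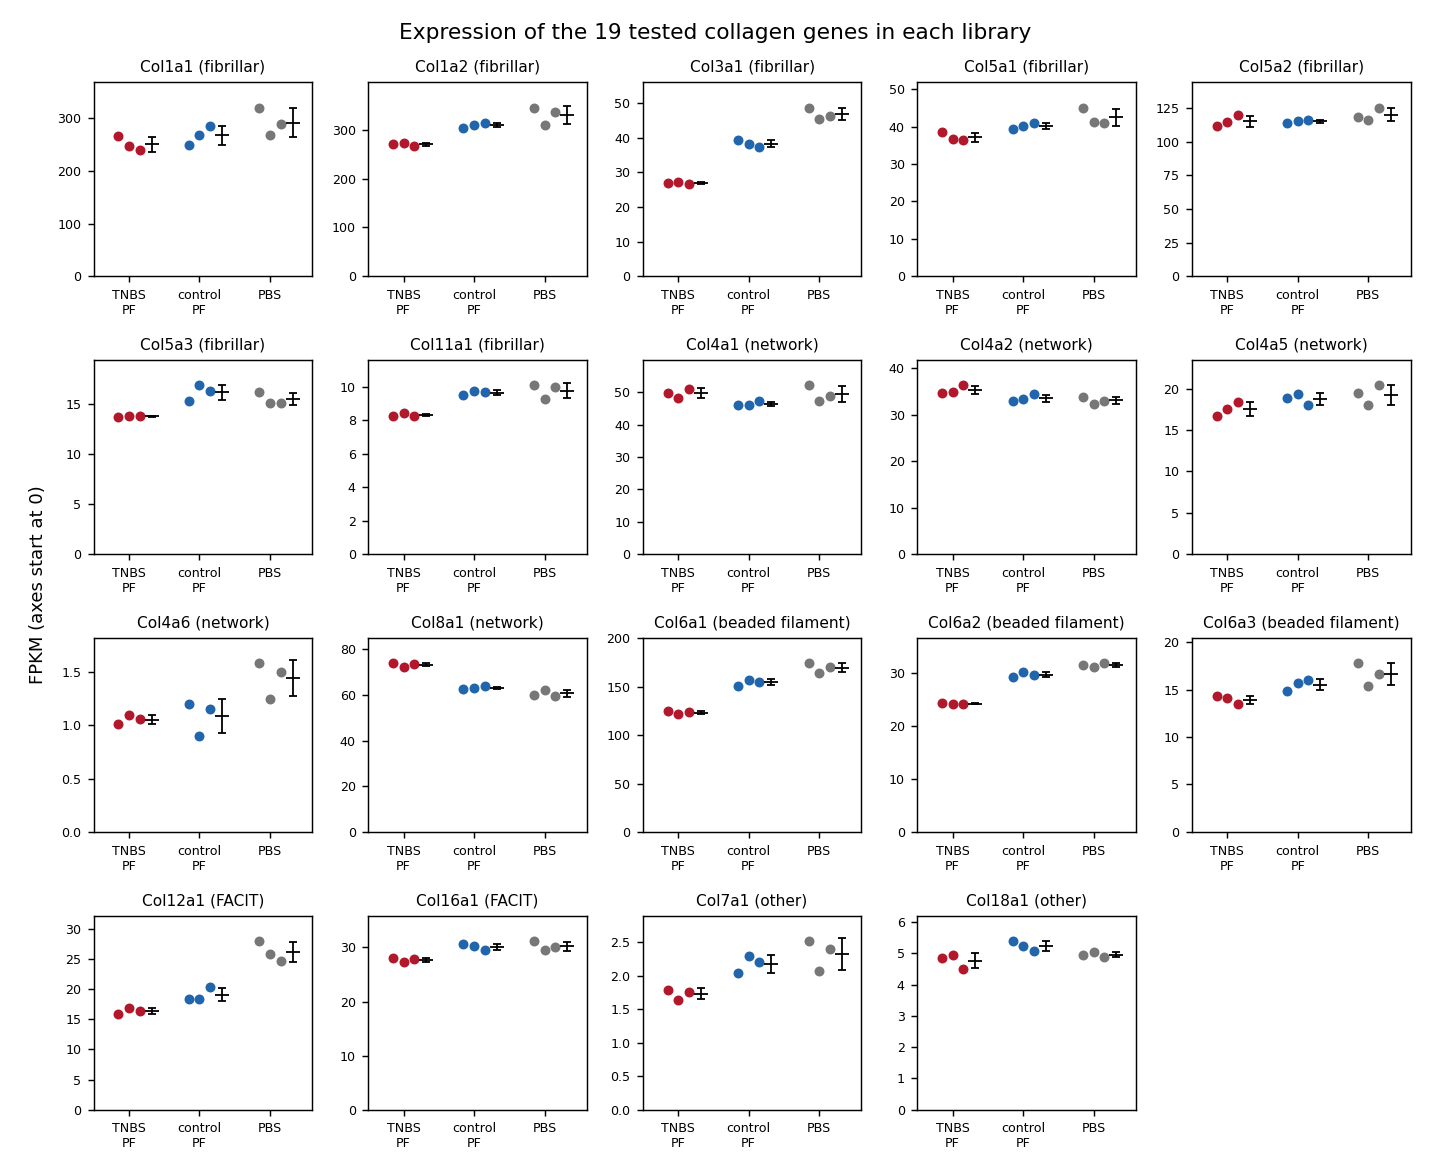
FPKM of the 19 tested collagen genes in each of the 9 libraries (points), by group on the horizontal axis, with the mean and SD of 3 libraries beside them; each panel has its own vertical axis, which starts at 0. Col3a1, Col6a1, Col6a2 and Col12a1 are low in all 3 TNBS PF libraries, Col8a1 is high in them, and TNBS PF overlaps both other groups for Col5a2.

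The summed FPKM of all 44 collagens was 1114 ± 14.0 with TNBS PF, 1218 ± 28.8 with control PF and 1305 ± 61.9 with PBS (SD, n = 3 libraries each). That is 0.407 to 0.415% of a library's total FPKM with TNBS PF, 0.435 to 0.463% with control PF and 0.458 to 0.517% with PBS. Fibrillar genes summed to 723.7 ± 14.1 FPKM with TNBS PF, 797.8 ± 24.1 with control PF and 858.4 ± 50.3 with PBS. Beaded filament genes summed to 161.5 ± 1.79 FPKM with TNBS PF, 199.7 ± 4.06 with control PF and 217.8 ± 6.39 with PBS. FACIT genes summed to 44.3 ± 0.25 FPKM with TNBS PF, 49.4 ± 0.58 with control PF and 56.7 ± 2.55 with PBS. The network genes summed to 177.3 ± 3.41 FPKM with TNBS PF, 163.5 ± 1.41 with control PF and 164.8 ± 3.15 with PBS, and most of that difference was Col8a1: without it the sums were 104.1 ± 3.02 FPKM with TNBS PF, 100.4 ± 0.904 with control PF and 104.2 ± 4.18 with PBS. The remaining genes summed to 6.66 ± 0.23 FPKM with TNBS PF, 7.60 ± 0.10 with control PF and 7.56 ± 0.28 with PBS. These sums are weighted to the few most abundant genes of a class and are given without a test.

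**Figure D2:**
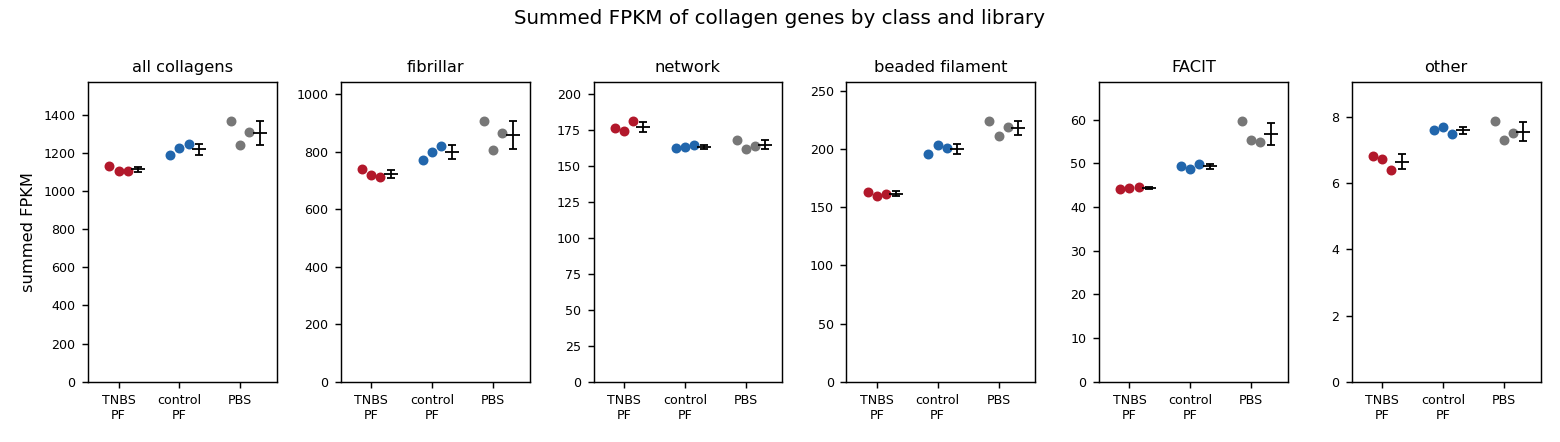
Summed FPKM of all 44 collagen genes and of each class (panels, vertical axis from 0) in each library (points), by group, with mean and SD of 3 libraries. The beaded filament sum is 161.5 FPKM with TNBS PF and 217.8 with PBS, whereas the network sum, which includes Col8a1, is highest with TNBS PF (177.3).

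The genes of type I collagen, the main fibril protein of bone and skin, had the highest FPKM of all members in every group. Together they gave 46.8% of all collagen FPKM with TNBS PF, 47.4% with control PF and 47.7% with PBS. In PBS cells Col1a2 ranked 79th and Col1a1 94th of all genes in the table by FPKM. Col1a2 had 272, 273 and 266 FPKM in the TNBS PF libraries, 305, 310.0 and 313 in control PF, and 346, 309.7 and 337 in PBS. The TNBS PF libraries lay below all others, by log2 −0.19 ± 0.04 (SE) against control PF (adjusted p = 0.00487) and −0.29 ± 0.04 against PBS (adjusted p = 0.000219). Control PF and PBS overlapped (log2 −0.09, adjusted p = 0.229; 0.0176 without PBS library 2). Its partner chain gene Col1a1 had 267, 247 and 239 FPKM with TNBS PF, 249, 269.5 and 285 with control PF, and 321, 268 and 289 with PBS. Here TNBS PF and control PF overlapped: log2 −0.09, 95% interval −0.23 to 0.05, adjusted p = 0.405. Col1a1 fell against PBS (log2 −0.22 ± 0.06, adjusted p = 0.0342), a call that was lost without TNBS PF library 2 or 3 or PBS library 1 or 3 (adjusted p up to 0.126). Control PF against PBS gave log2 −0.12 for Col1a1 (adjusted p = 0.375).

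Col3a1, whose homotrimer forms the type III fibrils of distensible tissue and is found in the same fibrils as type I, had the lowest FPKM ratio of the 19 tested members in TNBS PF against either other group. Its level was 26.9, 27.3 and 26.5 FPKM with TNBS PF, 39.4, 38.1 and 37.4 with control PF, and 48.7, 45.4 and 46.2 with PBS. The 3 groups did not overlap anywhere, with TNBS PF lowest and PBS highest. TNBS PF was at 0.703 of the control PF mean (log2 −0.49 ± 0.03, adjusted p = 4.25e-06) and at 0.576 of the PBS mean (log2 −0.77 ± 0.03, adjusted p = 5.34e-08). Control PF was at 0.819 of the PBS mean (log2 −0.28 ± 0.03, adjusted p = 0.00139). All 3 calls held under every alternative tried. In GENCODE M21 (GRCm38/mm10) Col3a1 lies on the plus strand of chromosome 1 at 45311538-45349706. Col5a2 is its neighbour on the minus strand, with 24614 bases between the genes. Col5a2 showed no such difference, as given below.

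The 250 bases before the RefSeq start of Col3a1 (GRCm38.p6, chr1:45311288-45311537, plus strand, 5′ to 3′) are shown because Col3a1 is the tested collagen furthest from control PF. Capitals mark the letters CAGAC, the core of a SMAD binding element (read as GTCTG on the other strand), and TATAAA, the letters of a core promoter box. Neither CCAAT nor GGGCGG occurs in the window on either strand.
Col3a1: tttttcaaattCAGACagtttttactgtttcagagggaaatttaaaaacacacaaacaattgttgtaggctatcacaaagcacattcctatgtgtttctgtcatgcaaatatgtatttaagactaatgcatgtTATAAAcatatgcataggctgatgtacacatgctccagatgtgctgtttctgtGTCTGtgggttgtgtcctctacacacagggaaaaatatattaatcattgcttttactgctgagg
TATAAA begins 117 bases before the start, and CAGAC matches begin 239 and 64 bases before it. A match is only a string of letters and says nothing of binding. Over all 27025 promoter windows of this length, 13.0% hold TATAAA and 42.1% hold CAGAC on either strand. Of the 16 tested collagens with a RefSeq window, 1 (Col3a1) holds TATAAA and 8 hold CAGAC. Among the same 16, 9 hold CCAAT and 12 hold GGGCGG (the letters of a GC box), where the shares of all windows are 34.5% and 32.9%.

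Type V and type XI chains co-assemble with type I and type II and set the diameter of the fibrils. Col5a3 had 13.7 to 13.8 FPKM with TNBS PF, 15.3 to 16.8 with control PF and 15.1 to 16.2 with PBS. It was lower with TNBS PF than with control PF (log2 −0.21 ± 0.04, adjusted p = 0.00695) and than with PBS (log2 −0.16 ± 0.04, adjusted p = 0.0235). The call against PBS was lost without any of the 3 TNBS PF libraries or without PBS library 1 (adjusted p up to 0.0854). Col11a1 fell likewise, with 8.25 to 8.41 FPKM with TNBS PF, 9.48 to 9.77 with control PF and 9.30 to 10.1 with PBS. Its log2 fold change was −0.19 ± 0.04 against control PF (adjusted p = 0.0119) and −0.21 ± 0.04 against PBS (adjusted p = 0.00515). Col5a1 had 38.5, 36.6 and 36.5 FPKM with TNBS PF, 39.5, 40.1 and 41.1 with control PF, and 45.1, 41.4 and 41.1 with PBS. It fell in TNBS PF against PBS (log2 −0.19 ± 0.04, adjusted p = 0.00574) and missed the threshold against control PF (log2 −0.11 ± 0.04, adjusted p = 0.0917), although those groups did not overlap. Without PBS library 1, which enters the estimate of the spread, it passed against control PF (adjusted p = 0.0412). It also passed with voom on recovered fragments (adjusted p = 0.024) and with only the 6 libraries of the comparison (0.0473). Over all alternatives that adjusted p ran up to 0.242.

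Col5a2, the other main type V gene, had the highest FPKM of the tested members without a call in any comparison. It had 112, 114 and 119.7 FPKM with TNBS PF, 114, 115 and 116 with control PF, and 118, 116 and 125 with PBS. TNBS PF overlapped both other groups, and its log2 fold change was 0.00 against control PF (95% interval −0.07 to 0.07, adjusted p = 0.996) and −0.06 against PBS (interval −0.13 to 0.02, adjusted p = 0.282). Control PF lay below PBS without overlap, and the difference missed the threshold (log2 −0.06, adjusted p = 0.452). None of Col5a1, Col5a2, Col5a3 and Col11a1 passed the test in control PF against PBS, with log2 fold changes between −0.08 and 0.05. Of the 7 tested fibrillar genes, 4 fell and none rose with TNBS PF against control PF, 6 fell against PBS, and 1 (Col3a1) fell with control PF against PBS.

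All 3 tested beaded filament genes fell in TNBS PF against PBS. Col6a1, Col6a2 and Col6a3 code for the chains that join into the type VI heterotrimer. Col6a1 had 124.6, 121.5 and 124.0 FPKM with TNBS PF, 151, 157 and 155 with control PF, and 174, 164 and 171 with PBS. The groups did not overlap, and TNBS PF was lowest in both comparisons: log2 −0.32 ± 0.03 against control PF (adjusted p = 3.59e-05) and −0.46 ± 0.03 against PBS (adjusted p = 1.52e-06). Control PF was lower than PBS by log2 −0.13 ± 0.03 (adjusted p = 0.0322), a call lost without any 1 of the 3 control PF libraries, PBS library 1 or 3, or TNBS PF library 1 or 3 (adjusted p up to 0.12), and also with a replicate block (adjusted p = 0.0738).

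Col6a2 had 24.4, 24.1 and 24.0 FPKM with TNBS PF, 29.1, 30.1 and 29.6 with control PF, and 31.5, 31.0 and 31.7 with PBS. It fell by log2 −0.28 ± 0.03 in TNBS PF against control PF (adjusted p = 0.000105) and by −0.36 ± 0.03 against PBS (adjusted p = 7.88e-06). Control PF lay below PBS without overlap, yet the difference missed the threshold (log2 −0.08, adjusted p = 0.193). Col6a3, the longest type VI chain, had 14.3, 14.1 and 13.4 FPKM with TNBS PF, 14.9, 15.6 and 16.0 with control PF, and 17.8, 15.4 and 16.7 with PBS. It fell against PBS (log2 −0.24 ± 0.05, adjusted p = 0.00625). Against control PF it missed the threshold (log2 −0.14 ± 0.05, adjusted p = 0.0848; 0.0472 without PBS library 2), although those groups did not overlap. Over all alternatives that adjusted p ran from 0.0122 to 0.246. Control PF and PBS overlapped for Col6a3 (log2 −0.09, adjusted p = 0.41). Col6a1 and Col6a2 lie on the same strand of chromosome 10 with 85161 bases between them. The RefSeq window of Col6a1 (chr10:76726045-76726294, minus strand) holds none of the 4 motifs searched. It lies partly inside the gene as GENCODE M21 places it (start at 76726168), so this does not describe only bases before the gene.

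Both tested FACIT genes fell in TNBS PF against either other group, and Col12a1 was the tested member with the largest difference between control PF and PBS. Type XII collagen links fibrils to the surrounding matrix. Col12a1 had 15.9, 16.8 and 16.4 FPKM with TNBS PF, 18.4, 18.4 and 20.3 with control PF, and 27.9, 25.8 and 24.6 with PBS. All PBS libraries lay above all libraries with either fluid. Control PF was at 0.729 of the PBS mean (log2 −0.44 ± 0.05, adjusted p = 0.000785) and TNBS PF at 0.626 (log2 −0.64 ± 0.05, adjusted p = 4.78e-06). TNBS PF was also lower than control PF, by log2 −0.21 ± 0.05 (adjusted p = 0.0189), a call lost without TNBS PF library 1 (adjusted p = 0.0765), TNBS PF library 3 (0.055) or control PF library 3 (0.0793).

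Col16a1, whose product is found in skin and smooth muscle, had 28.0, 27.2 and 28.0 FPKM with TNBS PF, 30.7, 30.2 and 29.5 with control PF, and 31.2, 29.5 and 30.1 with PBS. TNBS PF lay below both other groups, by log2 −0.12 ± 0.03 against control PF (adjusted p = 0.0417) and −0.12 ± 0.03 against PBS (adjusted p = 0.0254). The first call was lost without any 1 of the 6 libraries compared (adjusted p 0.0577 to 0.144) or PBS library 3 (0.0543), and with a replicate block (adjusted p = 0.0599). The second was lost without any TNBS PF library, PBS library 1 or PBS library 3 (adjusted p up to 0.0958). Control PF and PBS overlapped (log2 0.00, adjusted p = 0.965).

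Network genes did not fall as a class: of 5 tested, Col8a1 rose and none fell with TNBS PF against control PF, Col8a1 rose and Col4a6 fell against PBS, and none was called for control PF against PBS. Col8a1, the type VIII chain of vessel walls and subendothelial matrix, was the gene that rose. Its level was 73.8, 72.4 and 73.5 FPKM with TNBS PF, 62.7, 63.0 and 63.7 with control PF, and 60.1, 62.3 and 59.5 with PBS. TNBS PF lay above every other library, at 1.16 times the control PF mean (log2 0.21 ± 0.03, adjusted p = 0.000449) and 1.21 times the PBS mean (log2 0.27 ± 0.03, adjusted p = 4.68e-05). Both calls held under every alternative tried. Control PF lay above PBS without overlap, but the difference missed the threshold (log2 0.06, adjusted p = 0.347). Col8a1 is on the minus strand of chromosome 16 at 57624258-57754737 in GENCODE M21.

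The 250 bases before the RefSeq start of Col8a1 (GRCm38.p6, chr16:57754738-57754987, minus strand, 5′ to 3′) are shown to set the tested collagen that rose beside Col3a1. Capitals mark GGGCGG, here always on the other strand and so read as CCGCCC, and CAGAC.
Col8a1: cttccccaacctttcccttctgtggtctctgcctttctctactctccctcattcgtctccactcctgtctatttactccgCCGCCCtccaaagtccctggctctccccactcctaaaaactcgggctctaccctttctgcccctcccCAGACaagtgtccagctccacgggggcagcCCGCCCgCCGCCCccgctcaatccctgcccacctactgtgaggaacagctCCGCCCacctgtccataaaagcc
It holds 4 GGGCGG matches, at 170, 73, 66 and 23 bases before the start, and 1 CAGAC match at 103, and none of CCAAT or TATAAA. The Col3a1 window has 0 GGGCGG matches. Col8a2, whose product can partner that of Col8a1, also has 4 GGGCGG matches in its window, and its level was under the filter.

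Type IV chains build the basement membrane. Their genes lie head to head in pairs in the mouse genome, as do Col4a1 and Col4a2 on chromosome 8 with starts 21 bases apart. Col4a1 had 49.8, 48.1 and 51.1 FPKM with TNBS PF, 46.0, 46.1 and 47.1 with control PF, and 52.1, 47.4 and 48.7 with PBS. TNBS PF lay above control PF without overlap and overlapped PBS, and neither difference passed the test (log2 0.10, adjusted p = 0.122, and log2 0.01, adjusted p = 0.9). Over the alternatives the adjusted p against control PF ran from 0.0468, with voom on recovered fragments, to 0.328. Col4a2 had 34.7, 34.9 and 36.3 FPKM with TNBS PF, 32.9, 33.3 and 34.4 with control PF, and 33.8, 32.4 and 33.1 with PBS. All 3 TNBS PF libraries lay above the others, again without a call (log2 0.07, adjusted p = 0.209 against control PF, and log2 0.09, adjusted p = 0.081 against PBS). Over the alternatives the adjusted p of Col4a2 against PBS ran from 0.0437 to 0.255.

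Col4a5 and Col4a6 are the head-to-head pair on the X chromosome, with starts 1309 bases apart, and they differed widely in level. Col4a5 averaged 17.6 ± 0.86 FPKM with TNBS PF, 18.8 ± 0.69 with control PF and 19.3 ± 1.23 with PBS (SD, n = 3 libraries each), and it was not called (log2 −0.09 against control PF and −0.13 against PBS for TNBS PF, adjusted p = 0.283 and 0.103, the second 0.0299 without PBS library 2). Col4a6 had 1.01, 1.09 and 1.06 FPKM with TNBS PF, 1.195, 0.904 and 1.154 with control PF, and 1.58, 1.249 and 1.5 with PBS. The PBS libraries lay above all others. Col4a6 fell in TNBS PF against PBS (log2 −0.25 ± 0.08, adjusted p = 0.0474), and the adjusted p ran from 0.007 to 0.147 over the alternatives. It was lost without any TNBS PF library, PBS library 1 or 3, or control PF library 3, and with a replicate block (adjusted p = 0.0517). Control PF against PBS missed the threshold (log2 −0.23, adjusted p = 0.169). Under the filter, Col4a3 and Col4a4 had at most 0.0843 and 0.0881 FPKM in any library.

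Outside these classes, Col7a1, which forms the anchoring fibrils of skin, had 1.79, 1.64 and 1.76 FPKM with TNBS PF, 2.03, 2.30 and 2.20 with control PF, and 2.51, 2.07 and 2.40 with PBS. It fell against PBS (log2 −0.28 ± 0.07, adjusted p = 0.0137), a call lost without TNBS PF library 2 (adjusted p = 0.0568) or PBS library 1 (0.0555). Against control PF it missed the threshold (log2 −0.22 ± 0.07, adjusted p = 0.0613; 0.0428 without PBS library 2), although those groups did not overlap. Over all alternatives that adjusted p ran from 0.00636 to 0.182. Col18a1, the multiplexin whose cleaved end is endostatin, had 4.49 to 4.95 FPKM with TNBS PF, 5.08 to 5.39 with control PF and 4.89 to 5.03 with PBS. It was not called in any comparison (log2 −0.11, 0.06 and −0.05 for TNBS PF against control PF, control PF against PBS and TNBS PF against PBS).

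**Figure D3:**
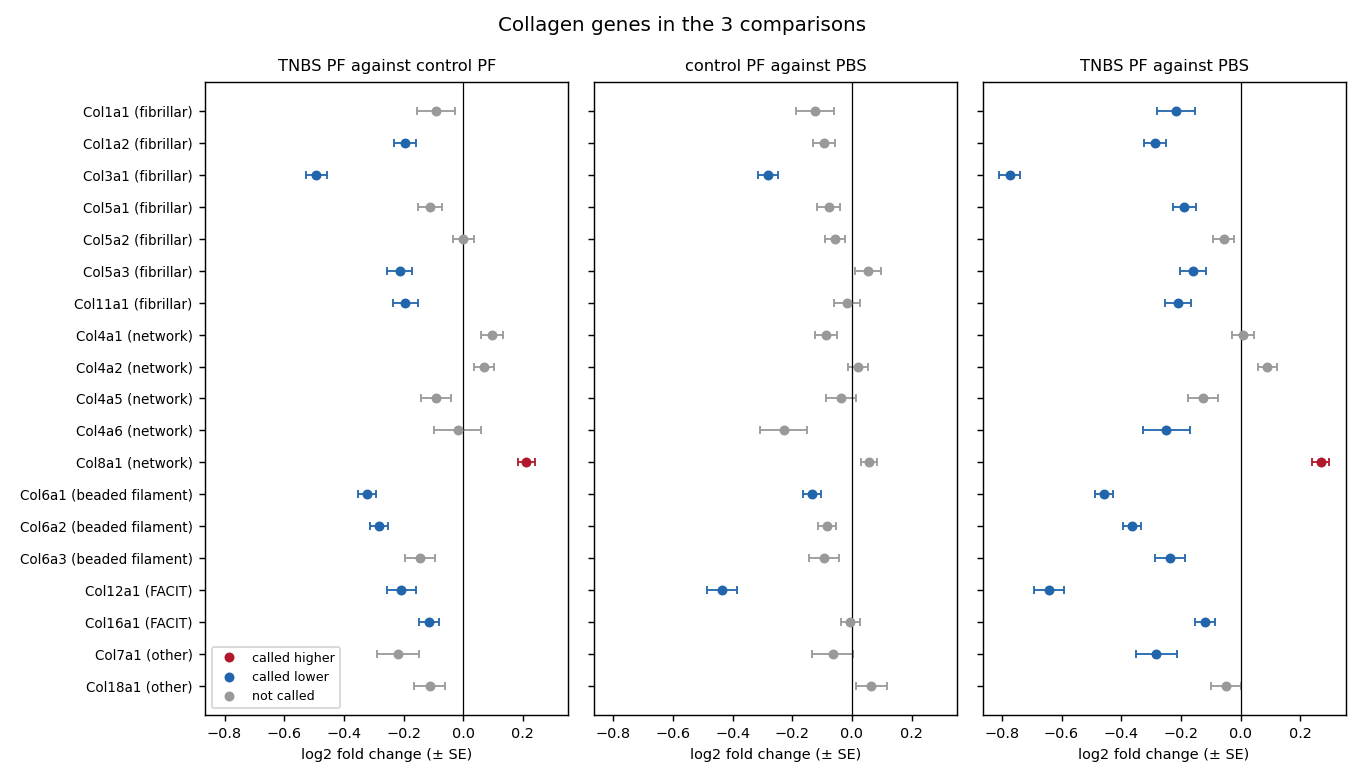
Log2 fold change with its standard error (horizontal axis) for the 19 tested collagen genes (vertical axis, with class) in each of the 3 comparisons; colour marks genes past an adjusted p of 0.05. Col3a1 lies furthest to the left of all in both panels of TNBS PF (−0.49 and −0.77), and Col8a1 is the one gene called higher (0.21 and 0.27).

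In PBS cells the levels, from the top, ran Col1a2 and Col1a1, which overlapped, then Col6a1, Col5a2 and Col8a1, then Col4a1 and Col3a1, which overlapped, then Col5a1 and Col4a2. Col6a2 and Col16a1 (overlapping), Col12a1, Col4a5, then Col6a3 and Col5a3 (overlapping), Col11a1, Col18a1, Col7a1 and Col4a6 followed. Col3a1 changed places most: it was 10th with TNBS PF, where it overlapped Col16a1, 8th with control PF and 7th with PBS. The order of the genes rests on FPKM, and so in part on annotated exon length.

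The 25 members under the filter were 4 fibrillar, 4 network, 3 beaded filament, 7 FACIT and 7 others, and the highest value of any of them was 1.04 FPKM. Col9a1, Col19a1, Col13a1 and Col26a1 were at 0 in all 9 libraries. At this depth 1 fragment in a transcript of 1 kb is 0.0391 to 0.056 FPKM, and a count of 0 there allows a level of up to 0.117 to 0.168 FPKM (3 fragments, counting error only). The 4 genes at 0 have longer exon lengths, from 4605 bases (Col13a1) to 8176 bases (Col26a1), so the limit for them is lower. The fibrillar genes Col2a1, Col11a2 and Col27a1 had means of 0.0242, 0.132 and 0.116 FPKM over the 9 libraries. Col6a4, Col6a5 and Col6a6, the later type VI chains, had means of 0.0593, 0.0138 and 0.0023 FPKM. Col2a1 and Col10a1, which mark cartilage and its hypertrophic zone, were thus near 0, Col10a1 with a mean of 0.0212 FPKM. Of 4 other cartilage markers only Sox9 had a mean of at least 1 FPKM (4.305), and of 4 bone markers only Runx2 did (5.41). Col9a2, Col9a3, Col14a1, Col20a1, Col22a1, Col15a1, Col17a1, Col23a1, Col25a1 and Col28a1 had means between 0.0070 and 0.127 FPKM.

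Among these 25, Col24a1 and Col8a2 alone had a mean over 0.2 FPKM. Col8a2 had 0.399, 0.305 and 0.603 FPKM with TNBS PF, 0.449, 0.347 and 0.528 with control PF, and 1.04, 0.607 and 0.745 with PBS. The PBS libraries lay above all others, and with the filter lowered to 0.1 FPKM the log2 fold change was −0.32 in TNBS PF against PBS (adjusted p = 0.0471, but 0.0912 with no filter) and −0.31 in control PF against PBS (adjusted p = 0.149). Col24a1, a fibrillar gene known from developing bone, had 0.476, 0.677 and 0.470 FPKM with TNBS PF, 0.946, 0.797 and 0.701 with control PF, and 0.646, 0.598 and 0.626 with PBS. Control PF was highest, and with the same lower filter TNBS PF against control PF gave log2 −0.24 (adjusted p = 0.063).

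Ratios between genes whose products meet in 1 trimer or fibril were compared by exact permutation of the 3 against 3 libraries, for 6 pairs in 3 comparisons. The smallest two-sided p this design allows is 0.1, and after adjustment over the 18 tests none was under 0.18. The size of a ratio depends on the annotated exon lengths of both genes, which are the same in every group. Col3a1 to Col1a1 was 0.101, 0.110 and 0.111 with TNBS PF, 0.158, 0.141 and 0.131 with control PF, and 0.152, 0.169 and 0.160 with PBS. TNBS PF lay below both other groups without overlap (exact p = 0.1 for each), and control PF overlapped PBS (exact p = 0.2). Col6a3 to Col6a1 was 0.108 to 0.116 with TNBS PF, 0.0983 to 0.103 with control PF and 0.0938 to 0.102 with PBS, with TNBS PF above both (exact p = 0.1 each).

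Col1a1 to Col1a2, which meet at 2 to 1 in the main type I trimer, averaged 0.928 ± 0.046 with TNBS PF, 0.865 ± 0.047 with control PF and 0.883 ± 0.039 with PBS, and all groups overlapped. Averages of ratios given here in the text are geometric means, and each SD is that of the untransformed ratios. Col6a1 to Col6a2 was 5.04 to 5.16 with TNBS PF, 5.19 to 5.25 with control PF and 5.30 to 5.53 with PBS, without overlap (exact p = 0.1 each). Col4a1 to Col4a2 averaged 1.41 with TNBS PF, 1.38 with control PF and 1.49 with PBS, with PBS above both other groups (exact p = 0.1 each). Col5a1 to Col5a2 averaged 0.323 with TNBS PF, 0.349 with control PF and 0.354 with PBS, and TNBS PF lay below control PF without overlap (exact p = 0.1).

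**Figure D4:**
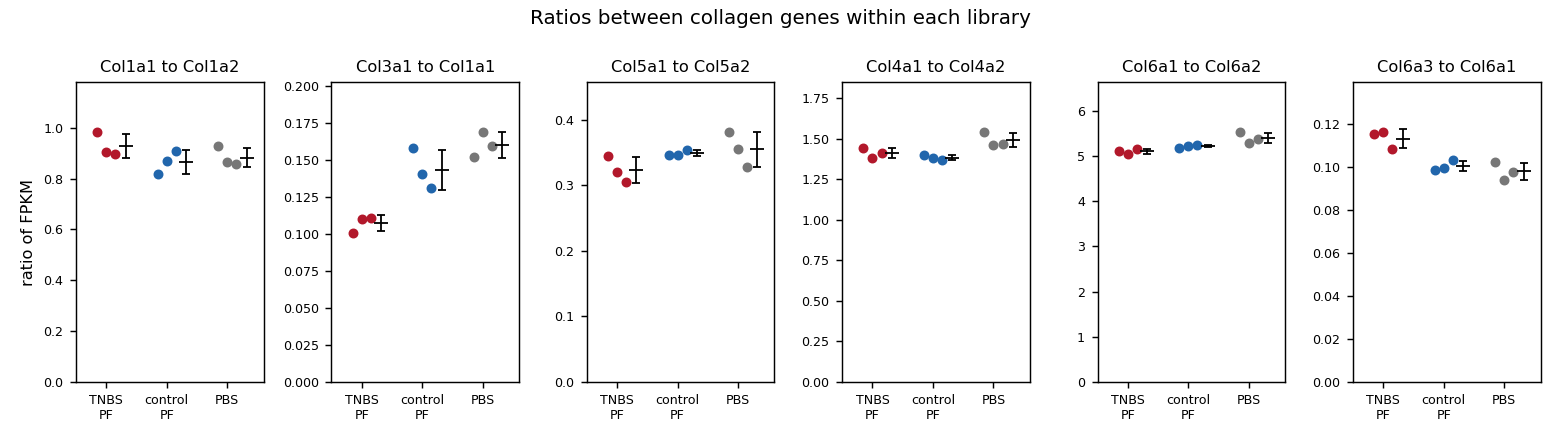
Ratio of the FPKM of paired collagen genes (panels, vertical axis from 0) in each library (points), by group, with mean and SD of 3 libraries. Col3a1 to Col1a1 is 0.101 to 0.111 in TNBS PF and 0.131 to 0.169 in the other groups, while Col1a1 to Col1a2 overlaps in all of them.

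Genes that modify, fold, export, trim, cross-link or bind collagen were described as a second list. Of 50 listed 41 were tested, and 1 was called, lower, in TNBS PF against control PF, 1 was called, lower, for control PF against PBS, and 8 were called for TNBS PF against PBS (6 lower, 2 higher). Their median log2 fold changes were −0.05, 0.00 and −0.05. These counts are 1 of 41, 1 of 41 and 8 of 41, beside the 10.6%, 2.15% and 16.7% of all genes called. In TNBS PF against control PF the count depended on the setting. It was 3 with median-ratio scaling, 3 with quantile normalization and 5 with the 6 libraries of the comparison only. With voom on recovered fragments it was 8, where 1548 genes in all were called beside 1117 in the main fit. No reading of the list's share is drawn from the 1 call.

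Of 12 tested modification genes, 3 fell in TNBS PF against PBS. P4ha1 and P4hb code for the subunits of prolyl 4-hydroxylase, which stabilises the helix. P4ha1 had 190.0, 190.3 and 182 FPKM with TNBS PF, 196, 195 and 191 with control PF, and 221, 214 and 220.4 with PBS. Both groups with fluid lay below PBS, by log2 −0.22 ± 0.03 for TNBS PF (adjusted p = 0.000245) and −0.17 ± 0.03 for control PF (adjusted p = 0.00838; 0.0576 without the trend of variance on level). P4hb had 392, 408 and 380.3 FPKM with TNBS PF, 428, 424 and 409.6 with control PF, and 449.6, 441 and 442 with PBS. It fell in TNBS PF against PBS (log2 −0.17 ± 0.03, adjusted p = 0.00248), as did Plod1, a lysyl hydroxylase (23.4 to 23.7 FPKM in TNBS PF against 25.0 to 26.7 in PBS, log2 −0.12 ± 0.04, adjusted p = 0.0373). The Plod1 call was lost without any TNBS PF library or PBS library 1 or 3 (adjusted p up to 0.124) and with a replicate block (adjusted p = 0.0588). No modification gene was called with TNBS PF against control PF, where Plod3 had the smallest p (log2 0.11, adjusted p = 0.0558; 0.0368 and 0.0445 without PBS library 1 or 2). The adjusted p of Plod3 ran from 0.0297 to 0.147 over all alternatives.

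In folding and export, Serpinh1 codes for HSP47, the collagen chaperone. It had 590.4, 586 and 582 FPKM with TNBS PF, 563, 558 and 559.8 with control PF, and 536, 549.9 and 567 with PBS. It rose in TNBS PF against PBS by log2 0.09 ± 0.03 (adjusted p = 0.0459), a call that was lost on omitting any library but PBS library 3, and with a replicate block (adjusted p = 0.0959; range over the alternatives 0.00738 to 0.181). Fkbp14, a prolyl isomerase of the endoplasmic reticulum, had 7.75, 6.88 and 7.28 FPKM with TNBS PF, 8.87, 8.23 and 8.34 with control PF, and 8.93, 9.14 and 8.43 with PBS. It was the 1 gene of the list called with TNBS PF against control PF (log2 −0.19 ± 0.05, adjusted p = 0.0328), which was lost without TNBS PF library 2 or 3 or any control PF library (adjusted p 0.0537 to 0.134), and it also fell against PBS (log2 −0.25 ± 0.05, adjusted p = 0.0065). Mia3 (TANGO1), which loads procollagen for export, fell against PBS (25.0 FPKM in TNBS PF against 27.0 in PBS, log2 −0.11 ± 0.03, adjusted p = 0.0415), a call lost without any TNBS PF library, PBS library 1 or 3 or control PF library 2 (adjusted p up to 0.122) and with a replicate block (adjusted p = 0.0717). In control PF against PBS the smallest p of this role was that of Tmem38b (log2 −0.19, adjusted p = 0.112).

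Among the procollagen N-proteinases, which cut off the amino-terminal propeptide, 2 genes moved in opposite directions. Adamts14 had 5.96, 6.65 and 6.08 FPKM with TNBS PF, 4.82, 5.37 and 5.65 with control PF, and 4.21, 4.74 and 4.44 with PBS. TNBS PF was highest and PBS lowest, with log2 0.40 ± 0.06 in TNBS PF against PBS (adjusted p = 0.000971) and about 0.20 in each of the other comparisons (adjusted p = 0.0586 for TNBS PF against control PF and 0.134 for control PF against PBS). With a replicate block TNBS PF against control PF passed (adjusted p = 0.0448), and over all alternatives that adjusted p ran from 0.021 to 0.204. Adamts3 had 0.844, 0.676 and 0.699 FPKM with TNBS PF, 1.08, 1.17 and 0.796 with control PF, and 1.21, 1.45 and 1.18 with PBS. It was lower in TNBS PF than in PBS (log2 −0.39 ± 0.09, adjusted p = 0.00848). All TNBS PF libraries were under 1 FPKM, so Adamts3 passed the filter only through control PF and PBS libraries, where it was higher. Its call is therefore not independent of the filter.

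No cross-linking gene and no receptor passed the test in any comparison of the main fit. The smallest p among the lysyl oxidases belonged to Loxl1 in TNBS PF against control PF (log2 −0.08, adjusted p = 0.133), Loxl3 in control PF against PBS (log2 0.10, adjusted p = 0.29) and Lox in TNBS PF against PBS (log2 −0.10, adjusted p = 0.102; 0.039 without PBS library 2). For Lox that adjusted p ran from 0.0119 to 0.323 over all alternatives. Among receptors the smallest p belonged to Ddr1 in TNBS PF against control PF (log2 −0.12, adjusted p = 0.0644), Ddr2 in control PF against PBS (log2 −0.12, adjusted p = 0.293), both collagen-binding kinases, and the integrin subunit gene Itgb1 in TNBS PF against PBS (log2 0.08, adjusted p = 0.0748). Over all alternatives the adjusted p ran from 0.0482 to 0.178 for that of Ddr1 and from 0.0133 to 0.795 for that of Itgb1.

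**Figure D5:**
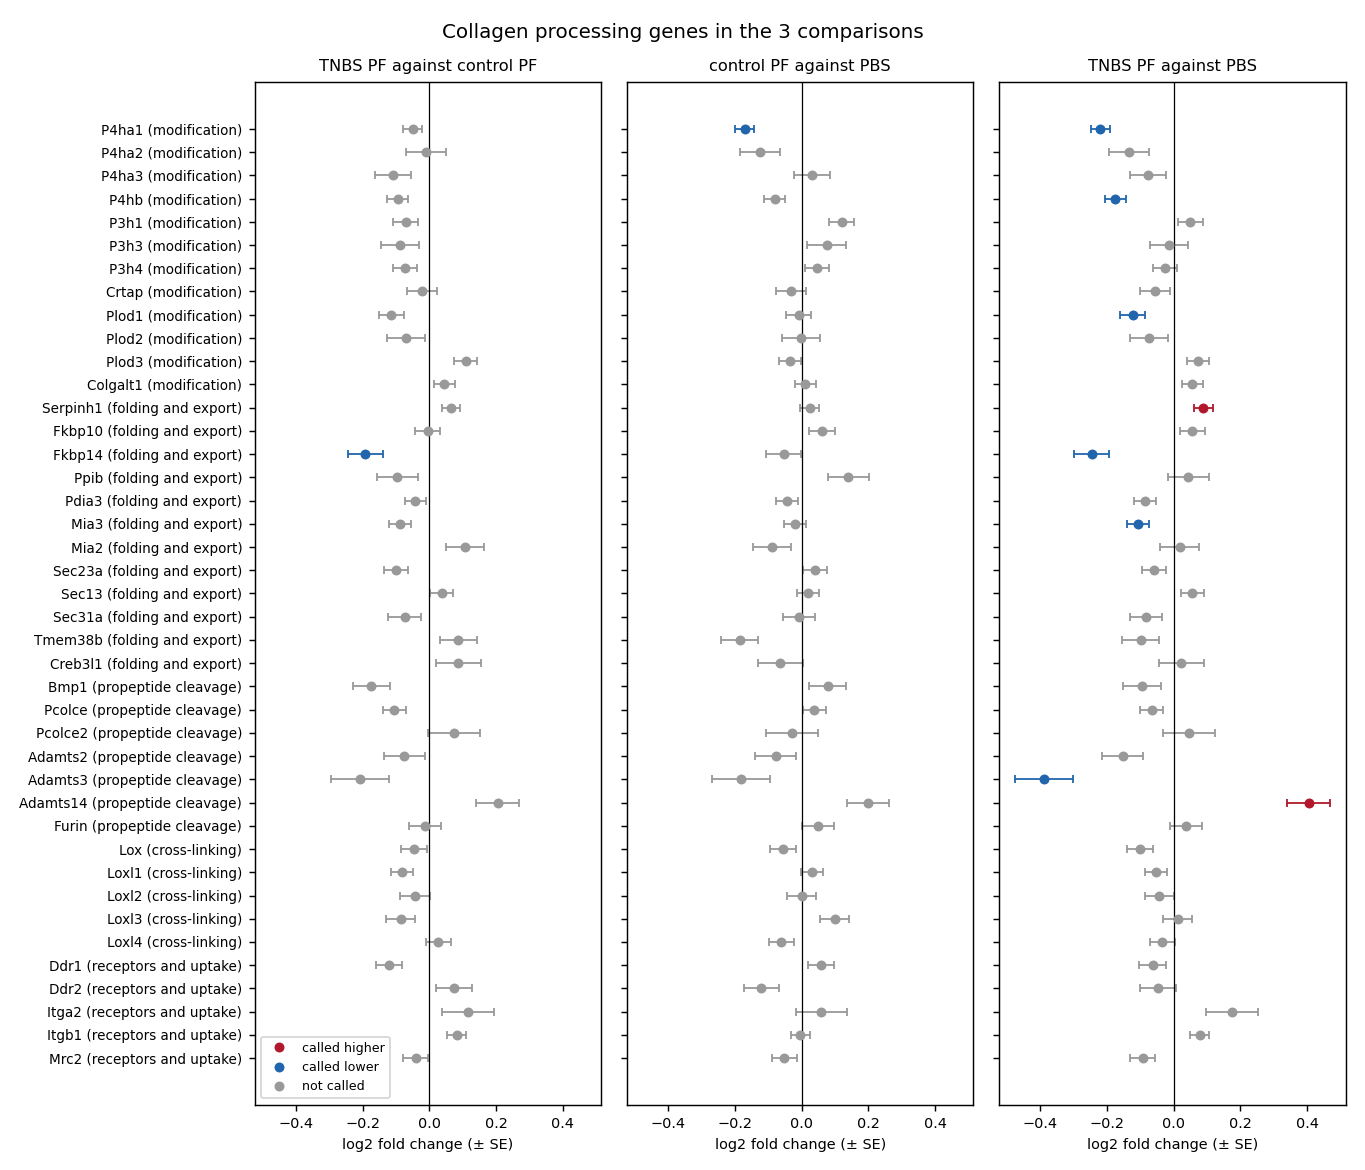
Log2 fold change with its standard error (horizontal axis) for the 41 tested genes of collagen modification, folding, propeptide cleavage, cross-linking and binding (vertical axis) in each comparison; colour marks genes past an adjusted p of 0.05. P4ha1 is called lower in both comparisons with PBS, and Adamts14 (0.40) and Adamts3 (−0.39) lie on opposite sides in TNBS PF against PBS. Adamts3 passed the filter only through control PF and PBS libraries.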

How the data were processed

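The expression table that the authors deposited holds FPKM, fragments per kilobase scaled to assigned fragments, per the file headers. Reads were trimmed with cutadapt 1.15 and the build was mm10, per the submitters' processing notes. Total RNA was isolated with Trizol and 3 µg entered each library, per the labels' protocols. For the aligner, the counting program and the strand, the sources used here give nothing. Without a known strand, reads of overlapping genes on opposite strands (Col4a1 and Col4a2) cannot be told apart. Such overlap covers 0.29% of the exon length of Col4a1, 0.98% of Col4a2 and 2.5% of Col5a1. Exons of Col3a1 overlap another gene on the same strand over 1.44% of their length.

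Genes that reached an FPKM of 1 in 3 or more of the 9 libraries (10537 of 21959) entered 1 limma 3.58.1 model (R 4.3.3) on log2(FPKM + 1), with a mean-variance trend. P-values were adjusted by Benjamini and Hochberg over all 10537 genes, with a threshold of 0.05. Deposited FPKM times GENCODE M21 exon lengths (found for 21902 genes) gave whole fragments within 0.01 for 97.21 to 97.38% of values under 1000 fragments, and so each library's depth and the counts for limma voom as an alternative. Ratios of genes were tested by two-sided exact permutation (scipy 1.17.1). The code was tested on simulated data. The members and gene lists were chosen with earlier results of these data known, so no pattern of those results is independent evidence. All tested members are named, those under the filter are given by class, and of the processing genes up to 3 called per role, or the one of smallest p. Other pseudocounts (0.1, 0.5), filters (0.1, none), scalings and models, a replicate block and the omission of each library were tried. Promoter windows come from RefSeq (GRCm38.p6) and were found for 35 of 44 members. Protein sequences were not used here.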

Additional observations from a re-analysis of the deposited data

How the results depend on the processing

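Called collagens numbered 7 to 13 in TNBS PF against control PF (9 as reported), 2 to 4 in control PF against PBS (3) and 9 to 15 in TNBS PF against PBS (14) over all alternatives; omitting 1 library gave 9 to 15 in the last. Called processing genes in TNBS PF against control PF (1) were 2 with TPM, 3 with median-ratio scaling, 3 with quantile normalization, 8 with voom, 5 with 6 libraries only, and 0 to 4 on omitting 1 library. In control PF against PBS (1) they were 2 with quantile normalization and 0 without the trend; in TNBS PF against PBS (8) they were 13 with voom, 5 without the trend and 5 to 9 on omitting 1 library. Over all genes, omitting 1 library gave 661 to 1255 calls in TNBS PF against control PF (1117), 115 to 311 in control PF against PBS (227) and 1148 to 1735 in TNBS PF against PBS (1758). Control PF against PBS gave 103 without a filter, 374 with voom and 117 without the trend. TPM gave 624 higher and 1153 lower in TNBS PF against PBS, against 822 and 936 as deposited. The causes were not tested.

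Same-numbered libraries did not deviate together (correlations −0.098 to 0.075), so the numbers were not taken to pair them. A fit with the replicate block called 8, 2 and 13 collagens and 2, 1 and 5 processing genes in the 3 comparisons, in the order above.

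Signs turned only for values that were not called. In TNBS PF against control PF, Col5a2 was −0.0059 with TPM, −0.0249 with quantile normalization, −0.0002 with voom and −0.0272 to 0.0221 on omitting 1 library, and Col4a6 was 0.0054 with quantile normalization and −0.0833 to 0.0195 on omission. Omission in control PF against PBS gave Col11a1 −0.0492 to 0.0039, Col4a5 −0.0834 to 0.0032 and Col16a1 −0.0228 to 0.0165. The log2 ratio of Col1a1 to Col1a2 was −0.0668 to 0.0117 there, and that of Col5a1 to Col5a2 −0.0769 to 0.0304. Col4a1 in TNBS PF against PBS was −0.0131 with TPM, −0.0055 with quantile normalization and −0.0198 to 0.0465 on omission. With 3 libraries per group, exact tests of ratios cannot pass 0.05, and depth limits the 25 members under the filter.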
